A study of Mus musculus with 16 samples.

Results

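The collagen genes and the integrin genes were taken as 1 group: every gene symbol of the form Col with a type and chain number, and every integrin alpha or beta symbol, apart from Col4a1, Col4a2 and the integrin-binding proteins whose symbols start Itgb1bp or Itgb3bp. The rule uses names only and no measured value. It found 57 of the 12393 genes measured, 34 of them collagen and 23 integrin. RefSeq lists 70 protein-coding mouse symbols of this form, and the remaining 13 were not analysed here. Itgbl1 and Itgb2l are met by the rule but are relatives of the integrin beta chains rather than established receptor subunits.

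The 16 arrays, of the Affymetrix Mouse 430A 2.0 type, carried RNA of mouse ES cells of the J1 line, an embryonic stem cell line kept on gelatin without feeder cells in serum with leukemia inhibitory factor. Total RNA of unsorted cultures was used. All 5 groups share the line and the medium, and differ as follows. The knockdown arm held 2 arrays of Tgif1 KD, in which Tgif1 was knocked down, and 2 of shControl, a control knockdown. The overexpression arm held 4 arrays of BirA control, which express the bacterial biotin ligase BirA, and 4 each of those labelled Tgif1 OE and Tgif2 OE. The labels give no construct, clone or culture, so p-values here refer to the spread among these arrays alone, and that spread may be technical. Tgif1, a homeodomain repressor, read 7.34 ± 0.25 log2 (SD, n = 2) on Tgif1 KD against 10.68 ± 0.06 on shControl. It read 10.14 ± 0.11 (SD, n = 4) on the arrays labelled Tgif1 OE against 10.73 ± 0.02 on BirA control, lower where the label says overexpression. Its paralog Tgif2 read 9.29 ± 0.09 on the arrays labelled Tgif2 OE and 9.30 ± 0.10 on BirA control. Tgif2 was also lower on the arrays labelled Tgif1 OE, at 8.84 ± 0.10, and Tgif1 on those labelled Tgif2 OE, at 10.19 ± 0.05. Each direction given below for the arrays labelled Tgif1 OE and Tgif2 OE therefore rests on the label alone. In the knockdown arm Tgif2 read 9.89 ± 0.01 on Tgif1 KD against 9.03 ± 0.07 on shControl, so the paralog was higher where Tgif1 was lower.

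Integrins are receptors of 1 alpha and 1 beta chain that hold a cell to its matrix and pass signals through adaptors at their cytoplasmic tails. Collagens are triple-helical matrix proteins: the fibrillar types build fibres, others form networks, coat fibrils or span the plasma membrane. ES cells attach mainly to laminin, through the alpha 6 chain with beta 1, and to fibronectin and vitronectin, through receptors that bind the RGD sequence and that include alpha V with beta 1 or beta 5.

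RefSeq promoter sequences (build GRCm38.p6) were found for 41 of the 57 genes. The 250 bases before the start of 4 genes are shown because the results turn on them. Itgav and Itgb5 encode the chains of 1 receptor and rose in each comparison with a control. The brightest Itga3 probe set moved in opposite directions in the arms, and Col11a1 rose on knockdown from a dim reading. Capitals mark TGTCA, or TGACA for the other strand, the core sequence that Tgif homeodomains bind.
Itgav, chr2:83724147-83724396, plus strand: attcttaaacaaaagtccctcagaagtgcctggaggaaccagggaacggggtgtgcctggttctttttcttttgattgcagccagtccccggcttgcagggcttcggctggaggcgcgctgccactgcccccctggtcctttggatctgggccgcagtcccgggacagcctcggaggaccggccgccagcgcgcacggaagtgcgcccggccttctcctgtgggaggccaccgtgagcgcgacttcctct
Itgb5, chr16:33829415-33829664, plus strand: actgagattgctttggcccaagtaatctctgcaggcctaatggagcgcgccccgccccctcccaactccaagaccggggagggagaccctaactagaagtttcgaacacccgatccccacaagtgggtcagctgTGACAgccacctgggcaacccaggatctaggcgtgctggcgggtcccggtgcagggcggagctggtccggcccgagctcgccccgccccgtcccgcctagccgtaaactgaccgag
Itga3, chr11:95076715-95076964, minus strand: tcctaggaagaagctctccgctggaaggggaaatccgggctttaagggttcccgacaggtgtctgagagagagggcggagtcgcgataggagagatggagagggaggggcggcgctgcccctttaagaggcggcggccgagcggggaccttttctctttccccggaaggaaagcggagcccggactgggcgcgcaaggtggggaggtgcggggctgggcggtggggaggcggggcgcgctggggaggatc
Col11a1, chr3:114030290-114030539, plus strand: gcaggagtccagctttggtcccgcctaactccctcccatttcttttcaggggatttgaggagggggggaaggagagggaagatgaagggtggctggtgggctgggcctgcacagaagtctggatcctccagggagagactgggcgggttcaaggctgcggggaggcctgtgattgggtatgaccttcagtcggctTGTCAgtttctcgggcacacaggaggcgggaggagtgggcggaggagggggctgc
The Itgb5 window holds 1 match, at position -116 from the start, and the Col11a1 window 1, at -55. The Itgav window and both Itga3 windows of the table, of which that of the upstream start is shown, hold none. The motif occurs in 13124 of 32851 windows of the table (40.0%), in 21 of the 46 windows of collagen and integrin genes (45.7%) and in 8 of 17 windows of members that passed the test in any comparison (47.1%). A match describes these letters and not binding.

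Levels are log2 intensities after each array was shifted by 1 constant so that its median difference from the 16-array mean of each gene was 0. Levels of different probe sets are not compared as amounts of RNA. Of the members, 38 lay in the dimmest 33.3% of all genes, 25 of the 34 collagen and 13 of the 23 integrin genes. Probe sets of 11 tissue-restricted genes averaged 4.77 to 4.97 by array, a rough guide to the reading of a probe set with little transcript. Group means of single genes among them ran from 2.87 to 7.06, so the average is not a cut-off. A reading above it is not thereby shown to be above background. The brightest integrin probe sets were those of Itga6, with a 16-array mean of 10.91, Itgav at 9.0, Itgb1 at 8.03, Itgb5 at 7.68 and Itga3 at 7.11. The brightest collagen probe sets were those of Col18a1 at 9.80, Col6a2 at 6.71, Col16a1 at 6.39, Col5a1 at 6.35 and Col5a2 at 6.12. The group means of 39 members lay within 0.5 log2 of each other. The 8 ES cell markers averaged 12.08 to 12.85 on every array.

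Tgif1 knockdown was set against shControl to ask which members differ where Tgif1 is lower. Tgif2 was higher on the same arrays, and its part was not tested. Itgav stood 2.67-fold, Itga6 1.64-fold and Itgb5 1.53-fold higher. These are 2 of 7 measured subunits of RGD-binding receptors, of which none fell, and 1 of 4 laminin-binding chains, of which Itga3 fell. Itga9, Itgb7 and Itgae also fell, and among the collagens Col11a1 rose while Col5a3 and Col6a2 fell. In all, 10 of 57 members passed an adjusted p under 0.05 in limma, 4 higher and 6 lower (17.5%), beside 25.1% of all genes, 14.8% higher and 10.3% lower. The share of members called lay below that of all genes. This did not hold without the dimmest 33.3% of genes, where 8 of 19 members passed beside 36.6% of all genes. The median change was -0.03 log2 over the members and 0.00 over all genes. With the mean of all probe sets of a gene in place of the brightest, 6 members were higher and 3 lower, and 6 of these calls were among the 10. Called were 7 of 23 integrin genes and 3 of 34 collagen genes. The groups did not overlap for 33 of 57 members, beside 67.8% of all genes. With 2 arrays a group a lack of overlap is a weak criterion.

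Itgav encodes the alpha V chain of the vitronectin and fibronectin receptors. It read 8.55 and 8.78 on shControl and 10.07 and 10.10 on Tgif1 KD. Both knockdown arrays stood far above both controls, and the change was 1.42 ± 0.12 log2 (SE, n = 2 against 2; adjusted p = 7.42e-07). Itgb5, the beta chain that pairs with alpha V alone, read 7.54 and 7.45 on shControl and 8.17 and 8.04 on Tgif1 KD, a change of 0.61 ± 0.13 (adjusted p = 0.00241). Its groups did not overlap either, and its 4 probe sets changed by 0.45 to 0.63, that at 0.63 ± 0.25 short of the threshold (0.0932). Of the dimmer probe sets of Itgav, that with a mean of 4.13 rose by 0.53 ± 0.14 (adjusted p = 0.0114) and that with a mean of 3.80 changed by 0.18 ± 0.15 (0.474).

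Itga6, the alpha chain of the main laminin receptors of ES cells, read 11.17 and 11.17 on shControl and 11.88 and 11.89 on Tgif1 KD. The change was 0.71 ± 0.08 (adjusted p = 7.22e-06), with arrays of a group nearly equal, and a second probe set rose by 0.76 ± 0.16. Itgb1, the beta chain that both alpha 6 and alpha V can use, read 7.81 and 7.56 on shControl and 7.97 and 7.83 on Tgif1 KD. Its groups lay close together, and the change of 0.21 ± 0.21 missed the threshold (adjusted p = 0.539; 95% interval -0.24 to 0.66). Itga5, the alpha chain of the classical fibronectin receptor, changed by -0.09 ± 0.09 (0.517; interval -0.28 to 0.10). The intervals leave room for modest changes of both.

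Itga3, the other laminin-receptor alpha chain in the group of called genes, went the other way from Itga6. It read 7.04 and 6.95 on shControl and 6.31 and 6.42 on Tgif1 KD, a change of -0.64 ± 0.19 (adjusted p = 0.0219). The groups did not overlap, but leaving out any 1 of the 4 arrays ended the call (adjusted p = 0.063 to 0.122), as did the mean of its probe sets (0.363), and 2 further probe sets changed by -0.06 ± 0.12 and 0.22 ± 0.18. Itga9, whose alpha 9 chain binds tenascin C, osteopontin and VCAM-1, read 6.75 and 6.90 on shControl and 6.22 and 6.13 on Tgif1 KD. That was a change of -0.65 ± 0.16 (0.00728), lost without Tgif1 KD replicate 2 (0.0557) or shControl replicate 2 (0.0694) and with the mean of its probe sets (0.0644).

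Itgae and Itgb7 encode the alpha E and beta 7 chains of a receptor for E-cadherin known from intraepithelial lymphocytes. Itgb7 read 7.75 and 7.90 on shControl and 7.35 and 7.43 on Tgif1 KD (-0.43 ± 0.12, adjusted p = 0.0128). Itgae read 7.22 and 7.43 on shControl and 6.92 and 6.90 on Tgif1 KD (-0.42 ± 0.11, adjusted p = 0.0124). In both genes each knockdown array lay below each control array. The Itgb7 call ended without Tgif1 KD replicate 1 (0.0877) or shControl replicate 2 (0.117), and that of Itgae without Tgif1 KD replicate 1 (0.0568), Tgif1 KD replicate 2 (0.0666) or shControl replicate 2 (0.141). The other 4 leukocyte integrin genes, Itgal, Itgam, Itgax and Itgb2, did not pass; Itgam changed by 0.35 ± 0.13 (0.0517, and 0.0257 with the replicate number as a block). All 6 measured markers of blood cells also missed the threshold, averaging 4.14 to 4.16 by array on shControl and 4.21 to 4.23 on Tgif1 KD.

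**Figure D1:**
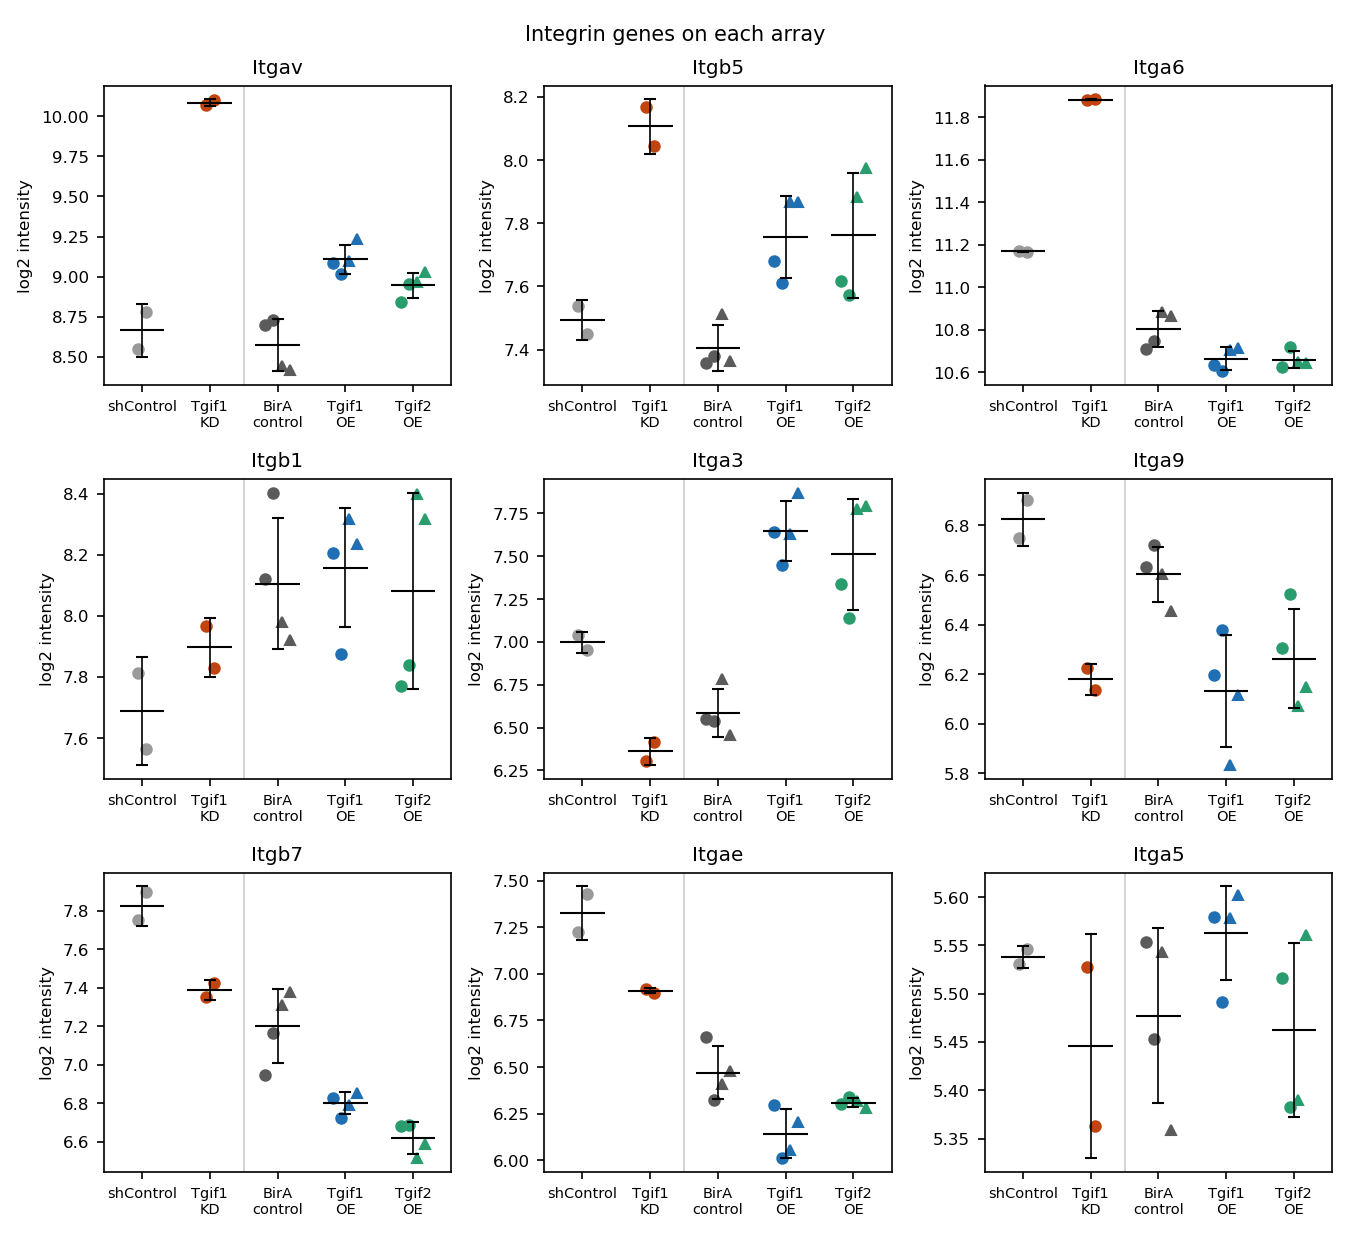
Log2 intensity (y axis, a separate range for each gene) of 9 integrin genes on each of the 16 arrays, by group (x axis); circles are replicates 1 and 2, triangles replicates 3 and 4, and bars the mean ± SD. Itgav, Itgb5 and Itga6 stand highest on Tgif1 KD, Itga3 stands highest on the arrays labelled Tgif1 OE and Tgif2 OE, and Itga5 lies between 5.36 and 5.60 on all arrays.

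Few collagen genes differed on knockdown. Col11a1, a minor chain of cartilage-type fibrils that sets fibril width, read 4.13 and 4.0 on shControl and 5.66 and 5.64 on Tgif1 KD. The change of 1.59 ± 0.18 (adjusted p = 1.34e-05) left both arrays of each group nearly equal, and a second probe set rose by 1.33 ± 0.18. Both shControl readings lay below the 4.77 to 4.97 of the tissue-restricted genes, so the control level was not shown to be above background and no fold is given. Col5a3, a minor chain of type V collagen, read 4.79 and 4.74 on shControl and 4.22 and 3.91 on Tgif1 KD (-0.70 ± 0.20, adjusted p = 0.0176). Its groups did not overlap, but its second probe set changed by -0.01, and the call ended without Tgif1 KD replicate 2 (0.154), shControl replicate 1 (0.0873) or shControl replicate 2 (0.0691), or with the mean of the probe sets (0.0837).

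Col6a2, a chain of the beaded type VI filaments around cells, read 6.98 and 6.63 on shControl and 6.45 and 6.40 on Tgif1 KD (-0.38 ± 0.13, adjusted p = 0.0409). Much of the difference lay in shControl replicate 1: without it the change was -0.20 (0.378). The call also ended without Tgif1 KD replicate 1 (0.109) or replicate 2 (0.167), with the mean of its probe sets (0.0635) and with only these 4 arrays in the model (0.0745). Col6a1, its neighbour on chromosome 10, changed by -0.01 ± 0.16. Col18a1, a basement membrane collagen and source of endostatin, read 9.70 and 9.74 on shControl and 9.50 and 9.44 on Tgif1 KD. Its change of -0.25 ± 0.10 missed the threshold (0.0827). It passed in 4 of 11 alternatives: on the deposited values without the shift (0.0388), after quantile normalization (0.0323), with the mean of its probe sets (0.0217) and with only these 4 arrays in the model (0.0385). Its second probe set changed by -0.28 ± 0.08 (0.0203).

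The type I, II and III fibrillar collagens and the second type V chain did not pass on knockdown. Col1a1 changed by 0.21 ± 0.16, Col1a2 by 0.14 ± 0.17, Col3a1 by -0.40 ± 0.24, Col5a1 by -0.19 ± 0.22 and Col5a2 by -0.03 ± 0.36. For Col5a2 the interval ran from -0.79 to 0.74, so this comparison says little about it. None of the 6 network, 9 fibril-associated or 3 membrane-spanning collagens passed in limma. At an unadjusted p under 0.05 these classes gave 0, 1 and 1 gene, beside 35.3% of all genes. For comparison, Col4a1 and Col4a2, the network chains of basement membranes that the rule leaves out, rose by 1.42 ± 0.17 and 1.18 ± 0.23.

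Of the 10 calls on knockdown, 4 held under every alternative in which they were tested, those of Col11a1, Itgav, Itga6 and Itgb5. The 5′ minus 3′ differences of the array's control probe sets, a reading of RNA and labelling quality, moved with the same split: -0.10 to -0.08 for Gapdh on Tgif1 KD against -0.22 to -0.21 on shControl, and -0.52 to -0.49 against -0.67 to -0.61 for Actb. With 2 arrays a group this difference and the knockdown cannot be told apart. ES cell markers were higher in 4 of 8 cases and none lower, beside 14.8% of all genes higher and 10.3% lower. Their mean was 12.82 to 12.85 against 12.48 to 12.50. Primitive endoderm markers, of cells that make basement membrane, were higher in 3 of 8, among them Pdgfra by 0.65 ± 0.12 and Sparc by 0.68 ± 0.09; their mean was 6.29 to 6.33 against 6.07 to 6.11, and their part in these results was not tested.

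**Figure D2:**
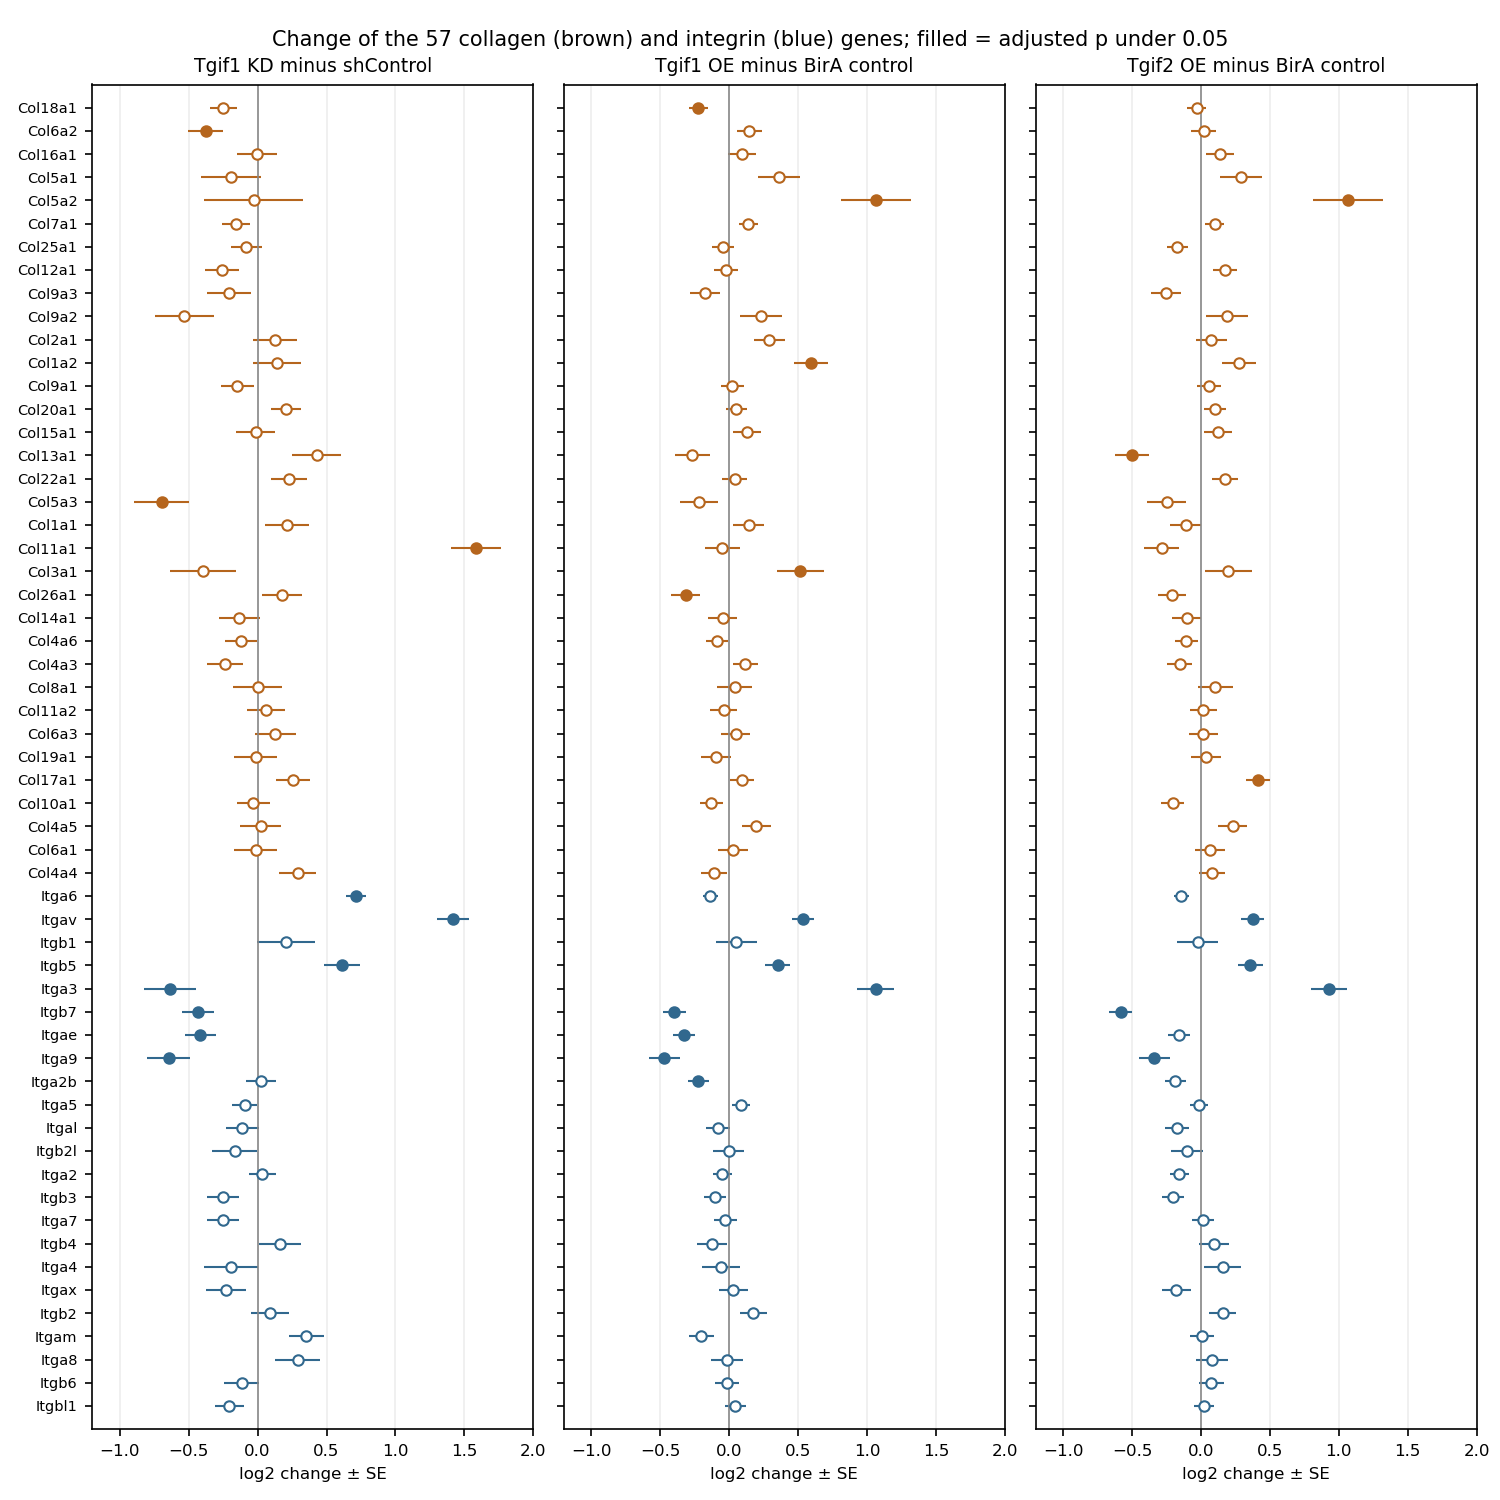
Log2 change (x axis, ± SE from limma) of each of the 57 genes (rows, collagens in brown and integrins in blue, each ordered by mean level) in the 3 comparisons with a control; filled points passed an adjusted p under 0.05. The knockdown panel has 10 filled points, the Tgif1 OE panel 12 and the Tgif2 OE panel 8, and most members lie near 0 in all panels.

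The arrays labelled Tgif1 OE were set against BirA control. Here Itga3 and the fibrillar collagen Col5a2 stood highest, each 2.09-fold above control, followed by Itgav (1.45-fold) and Itgb5 (1.28-fold). Col1a2 and Col3a1 rose from control readings near or below the average of the tissue-restricted genes, and no fold is given for them. The Col5a2 control readings lay above that average but below the 6.32 of the highest such gene on BirA control. They were not shown to be above background either. Itga9, Itgb7, Itgae, Itga2b, Col26a1 and Col18a1 fell. This gave 12 of 57 members past the threshold, 6 higher and 6 lower (21.1%), beside 20.7% of all genes, 10.1% higher and 10.6% lower. The median change was -0.01 over the members and -0.01 over all genes. The groups did not overlap for 10 members (17.5%), beside 23.2% of all genes. On the deposited values without the shift 6 members were higher and 3 lower, and after quantile normalization 5 and 4.

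Itga3 read 6.55, 6.54, 6.78 and 6.46 on BirA control and 7.64, 7.45, 7.63 and 7.87 on the arrays labelled Tgif1 OE. All 4 lay above all 4 controls, and the change was 1.06 ± 0.13 (SE, n = 4 against 4; adjusted p = 5.47e-05), against a fall on knockdown. Its 2 other probe sets changed by 0.37 ± 0.09 (0.00804) and 0.17 ± 0.12 (0.425), the same direction with smaller sizes. Itgav read 8.70, 8.73, 8.45 and 8.42 on BirA control and 9.09, 9.01, 9.10 and 9.23 on the arrays labelled Tgif1 OE (0.53 ± 0.08, adjusted p = 0.000291). Itgb5 read 7.36, 7.38, 7.51 and 7.36 on BirA control and 7.68, 7.61, 7.87 and 7.87 on the arrays labelled Tgif1 OE (0.35 ± 0.09, 0.0118). Neither gene's groups overlapped, so alpha V and beta 5 rose here as they did on knockdown.

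Among the collagens that rose, Col5a2 encodes the second chain of type V collagen, which nucleates type I fibrils. It read 5.30, 5.60, 5.85 and 5.66 on BirA control and 6.36, 6.34, 6.94 and 7.02 on the arrays labelled Tgif1 OE. The groups did not overlap (1.07 ± 0.25, adjusted p = 0.00696), and its second probe set rose by 0.69 ± 0.18 (0.0154). Col1a2, the alpha 2 chain of type I collagen, read 4.89, 4.82, 4.95 and 5.33 on BirA control and 5.37, 5.61, 5.85 and 5.55 on the arrays labelled Tgif1 OE. Its change was 0.59 ± 0.12 (0.00266), with BirA control replicate 4 just below the lowest Tgif1 OE array, and its second probe set changed by 0.38 ± 0.15 (0.112).

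Col3a1, the type III chain and the direct neighbour of Col5a2 on chromosome 1, read 4.17, 4.36, 4.11 and 4.14 on BirA control and 4.76, 4.21, 5.0 and 4.88 on the arrays labelled Tgif1 OE. The groups overlapped through replicate 2, the change of 0.51 ± 0.17 was near the threshold (0.0448), and its second probe set changed by 0.10 ± 0.07. The call held without Tgif1 OE replicate 2 and ended without any 1 of the other 7 arrays (adjusted p = 0.0513 to 0.132) and after quantile normalization (0.0529). Col1a1, the partner of Col1a2 in type I collagen, changed by 0.14 ± 0.11 (0.442; interval -0.10 to 0.38), and Col5a1, the partner of Col5a2, by 0.36 ± 0.15 (0.116, and 0.00456 with the replicate number as a block). A second probe set of Col1a1 rose by 0.46 ± 0.10 (0.00537). Of the dimmer Col5a1 probe sets, 1 rose by 0.50 ± 0.13 (0.0124) and 1 changed by -0.0014 ± 0.077 (0.994). With the mean of the probe sets both genes passed, Col1a1 at 0.31 (0.0202) and Col5a1 at 0.29 (0.0459). Of the 9 fibrillar collagens measured, 3 rose, Col3a1 among them, and none fell, beside 10.1% of all genes higher; the median change was 0.29. None of the 9 fibril-associated, 6 network or 3 membrane-spanning collagens passed in limma, and at an unadjusted p under 0.05 those classes gave 0, 0 and 1 gene, beside 31.8% of all genes. The difference between the classes was not tested.

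**Figure D3:**
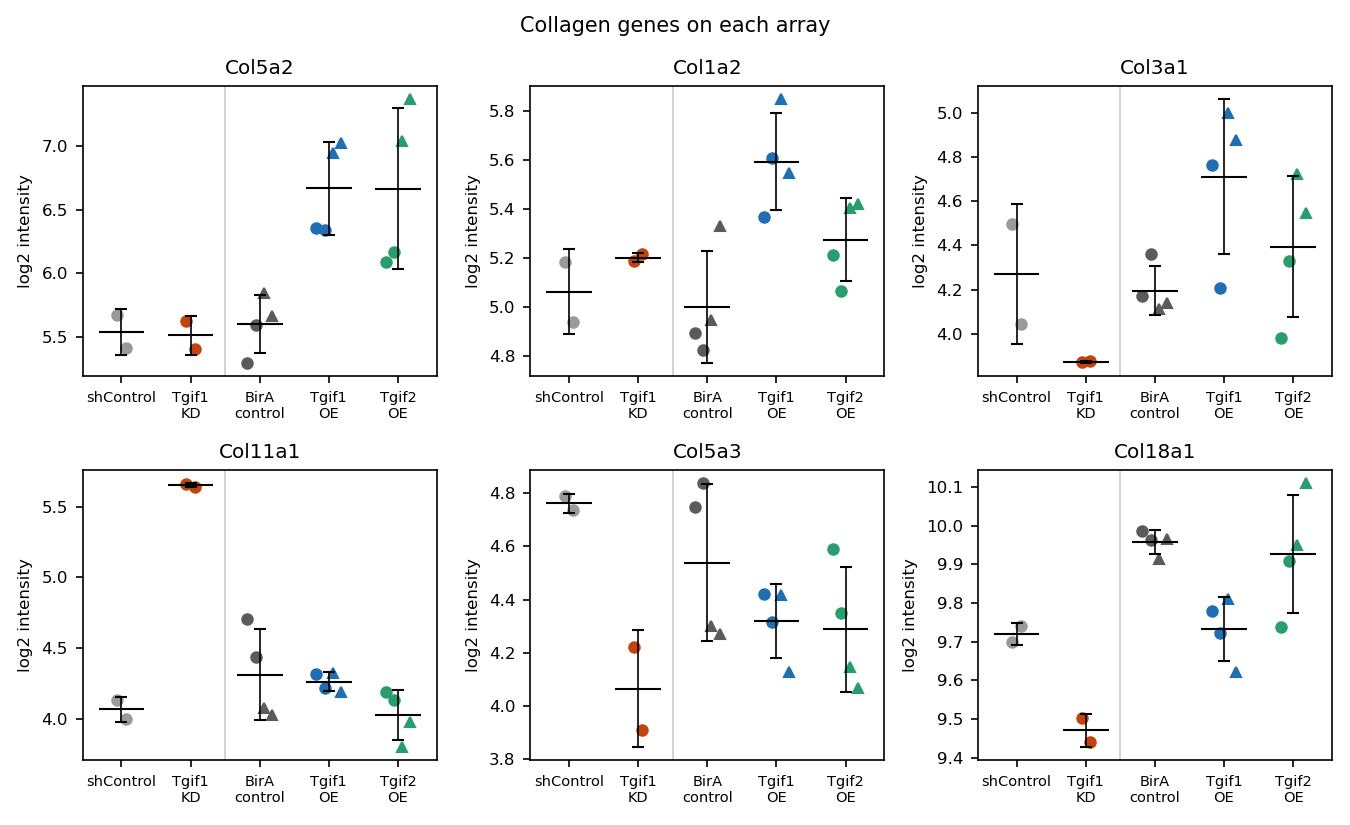
Log2 intensity (y axis, a separate range for each gene) of 6 collagen genes on each of the 16 arrays, by group (x axis); circles are replicates 1 and 2, triangles replicates 3 and 4, and bars the mean ± SD. Col5a2 is above 6.0 on all 8 arrays labelled Tgif1 OE or Tgif2 OE and below it on the others, and Col11a1 is above 5.6 on the Tgif1 KD arrays only.

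Itga9, Itgb7 and Itgae, called lower on knockdown, were also lower on the arrays labelled Tgif1 OE, unlike Itga3, which rose, and Col5a3 and Col6a2, which were not called. Itga9 read 6.63, 6.72, 6.60 and 6.45 on BirA control and 6.20, 6.38, 5.83 and 6.12 on the arrays labelled Tgif1 OE (-0.47 ± 0.11, adjusted p = 0.00739). Itgb7 read 6.94, 7.17, 7.31 and 7.38 on BirA control and 6.83, 6.72, 6.79 and 6.85 on the arrays labelled Tgif1 OE (-0.40 ± 0.08, 0.00282). Itgae read 6.66, 6.32, 6.41 and 6.48 on BirA control and 6.29, 6.01, 6.05 and 6.21 on the arrays labelled Tgif1 OE (-0.33 ± 0.08, 0.00799). None of the 3 overlapped between groups, although the gaps were narrow for Itgae and Itga9. Itgb7 and Itgae also stood higher on shControl than on BirA control, which belong to separate arms.

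Col18a1 read 9.99, 9.96, 9.91 and 9.97 on BirA control and 9.78, 9.72, 9.81 and 9.62 on the arrays labelled Tgif1 OE (-0.22 ± 0.07, adjusted p = 0.0338). The groups did not overlap, but the call ended on the deposited values (0.0533), after quantile normalization (0.0709), with the replicate number as a block (0.0584), and without Tgif1 OE replicate 2 or 4 or BirA control replicate 1, 2 or 4 (0.0649 to 0.109). The second probe set of Col18a1 changed by -0.22 ± 0.06 (0.015). The other calls, chosen here after their values were seen because they complete the count, were Col26a1 at -0.32 ± 0.10 (0.0386) and Itga2b, the platelet alpha IIb chain, at -0.23 ± 0.08 (0.0479). Both overlapped between groups and ended on the deposited values (0.056 and 0.0626). That of Itga2b also ended after quantile normalization (0.0579), with the mean of its probe sets (0.0509), with a trended and robust variance (0.0674) and with only these groups in the model (0.119). Leaving out Tgif1 OE replicate 2 or BirA control replicate 1, 2 or 4 ended both (0.0649 to 0.149), as did Tgif1 OE replicate 4 for Col26a1 (0.116) and replicate 3 for Itga2b (0.128). The calls that held under every alternative in which they were tested were those of Itga3, Itgav, Itgb5, Itga9, Col5a2 and Col1a2, 6 of 12. Col1a2 lay in the dimmest 33.3% of genes and was not tested where these were left out.

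Itga6 did not follow the knockdown here. It read 10.71, 10.75, 10.88 and 10.86 on BirA control and 10.63, 10.60, 10.71 and 10.71 on the arrays labelled Tgif1 OE, and its change of -0.14 ± 0.05 missed the threshold (adjusted p = 0.083). Itgb1 read 8.12, 8.40, 7.98 and 7.92 on BirA control and 8.20, 7.87, 8.32 and 8.23 on the arrays labelled Tgif1 OE, with overlapping groups (0.05 ± 0.15, 0.862; interval -0.27 to 0.37). That pooled Itgb1 value is a mean of opposite differences among the replicates, given below, and does not show that Itgb1 was unchanged. Itga5 changed by 0.09 ± 0.06 (0.404; interval -0.05 to 0.22).

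The arrays labelled Tgif2 OE were set against the same BirA control arrays, so the results of these comparisons are not independent. Col5a2 stood 2.09-fold and Itga3 1.90-fold above control, Itgav, Itgb5 and Col17a1 rose, and Itgb7, Col13a1 and Itga9 fell. That was 8 of 57 members, 5 higher and 3 lower (14.0%), beside 26.9% of all genes, 13.4% higher and 13.5% lower. The median change was 0.02 over the members and 0.00 over all genes. The groups did not overlap for 10 members, beside 26.7% of all genes. On the deposited values, where the Tgif2 OE arrays lie 0.11 log2 above the other 12 and the median change of all genes was 0.12, 12 members were higher and 2 lower beside 35.4% of all genes, of which 81.1% were higher. After quantile normalization 5 were higher and 2 lower. With the replicate number as a block 13 members passed, the 8 and Col5a1, Col12a1, Col10a1, Col9a3 and Itga2b. With array pair means 9 passed, 7 of the 8 with Col5a1 (0.0416) and Col1a2 (0.0437), so the other 4 calls gained under the block were not among them.

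Col5a2 read 6.09, 6.17, 7.04 and 7.37 on the arrays labelled Tgif2 OE, all above the highest BirA control value of 5.85 (1.07 ± 0.25, adjusted p = 0.00578). Itga3 read 7.34, 7.14, 7.77 and 7.80, also without overlap (0.93 ± 0.13, 0.000133), and its other probe sets changed by 0.11 ± 0.09 and 0.36 ± 0.12 (0.393 and 0.0483). Itgav read 8.84, 8.95, 8.96 and 9.03 (0.37 ± 0.08, 0.00349) and Itgb5 7.62, 7.57, 7.88 and 7.98 (0.36 ± 0.09, 0.00897). Every one of these 16 values lay above the whole BirA control range of its gene. The Itgav call ended with the mean of its probe sets (0.0519).

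Itgb7 read 6.68, 6.69, 6.51 and 6.59 on the arrays labelled Tgif2 OE, all below the lowest BirA control value of 6.94 (-0.58 ± 0.08, adjusted p = 0.000127). Itga9 read 6.31, 6.52, 6.07 and 6.15, which overlapped BirA control through replicate 2 (-0.34 ± 0.11, 0.037). That call ended on the deposited values (-0.22, 0.147), after quantile normalization (0.0549), with the mean of its probe sets (0.26), and without any 1 of Tgif2 OE replicates 1, 3 and 4 or BirA control replicates 1, 2 and 3 (0.0536 to 0.112). Itgae changed by -0.16 ± 0.08 (0.154), and Itga6 by -0.14 ± 0.05 (0.0608). Itga6 was called lower in 5 of 19 alternatives, with the lowest adjusted p of 0.0205 in replicates 3 and 4 alone.

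The membrane-spanning collagens, adhesion proteins of epithelial and other cells, gave 2 further calls, Col17a1 and Col13a1, named because they complete the count. Col17a1, the hemidesmosome collagen, read 3.70, 3.78, 3.72 and 3.58 on BirA control, 3.72, 3.81, 3.76 and 3.87 on the arrays labelled Tgif1 OE and 4.24, 4.24, 4.03 and 3.93 on those labelled Tgif2 OE. It rose against BirA control (0.41 ± 0.09, adjusted p = 0.00255). Col13a1 read 4.39, 4.55, 4.93 and 4.81 on BirA control and 4.20, 3.95, 4.28 and 4.26 on the arrays labelled Tgif2 OE (-0.50 ± 0.12, 0.00802). Both were free of overlap. All these Col17a1 readings, and those of Col13a1 on the arrays labelled Tgif2 OE, lay below the 4.77 to 4.97 of the tissue-restricted genes. They were not shown to be above background, and no fold is given. Col1a2 (0.28 ± 0.12, 0.113), Col3a1 (0.20 ± 0.17, 0.435), Col1a1 (-0.11 ± 0.11, 0.522) and Col5a1 (0.29 ± 0.15, 0.187) did not pass. Col11a1 was not called either (interval -0.55 to -0.01), but was lower in 4 of 18 alternatives, among them the mean of its probe sets (-0.46 ± 0.10, 0.00245). Its second probe set, with a dim 16-array mean of 3.80, changed by -0.65 ± 0.13 (0.00162). The calls that held under every alternative in which they were tested were those of Col5a2, Itga3, Itgb5, Itgb7 and Col17a1, 5 of 8. Col17a1 lay in the dimmest 33.3% of genes and was not tested where these were left out.

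The arrays labelled Tgif1 OE were also set directly against those labelled Tgif2 OE. Only Col17a1 passed, with a change of -0.32 ± 0.09 (adjusted p = 0.0327), so 0 of 57 members were higher and 1 lower, beside 9.59% of all genes, 4.78% higher and 4.81% lower. The Col17a1 readings of both groups lay below those of the tissue-restricted genes. At an unadjusted p under 0.05 there were 8 members (14.0%), beside 24.4% of all genes. The Col17a1 call ended without Tgif1 OE replicate 1, 2 or 3 or Tgif2 OE replicate 1 or 2 (0.0575 to 0.0963), and with only these groups in the model (0.054), where 1 other member was higher. On the deposited values, which carry the offset of the Tgif2 OE arrays, 7 members were lower and 0 higher, beside 19.7% of all genes, of which 11.4% were higher, and with the replicate number as a block Col1a1 and Col12a1 passed as well (both 0.0451). Col5a2 differed by 0.00 ± 0.25 (interval -0.54 to 0.54), Itga3 by 0.14 ± 0.13 (-0.15 to 0.42), Itgav by 0.16 ± 0.08 (-0.02 to 0.34) and Itgb5 by -0.01 ± 0.09 (-0.20 to 0.19). The Col5a2 interval allows a difference of 0.54 either way.

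A contrast within the same model tested whether the knockdown effect and the effect on the arrays labelled Tgif1 OE differed. They did for 9 of 57 members, beside 27.1% of all genes. The brightest Itga3 probe set fell by 0.64 in one and rose by 1.06 in the other, a difference of -1.70 ± 0.23 (adjusted p = 6.00e-05). With the mean of the Itga3 probe sets the knockdown change was -0.16 and was not called (0.363). Itgav rose in both, by 1.42 and 0.53, and the rise was larger on knockdown by 0.88 ± 0.14 (0.000265). Itga6 and Col11a1 passed on knockdown and not, in the main fit, on the arrays labelled Tgif1 OE. The differences were 0.85 ± 0.09 (7.54e-06) and 1.63 ± 0.22 (5.23e-05). Col3a1 and Col6a2 were lower in the knockdown arm relative to the other, by -0.91 ± 0.30 (0.0326) and -0.52 ± 0.16 (0.0208). For Itgb5, Itga9, Itgb7 and Itgae, which passed in the same direction in both arms, the difference was not called.

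Within each group of the overexpression arm, replicates 1 and 2 stood apart from replicates 3 and 4, for which the labels name no batch. Deviations from the group mean correlated over all genes at 0.22 to 0.59 within these pairs and at -0.82 to -0.67 across them. The Gapdh 5′ minus 3′ difference followed it: replicates 3 and 4 lay nearer to 0 than replicates 1 and 2 in all 3 groups. Effects were therefore computed within each pair. Against BirA control the arrays labelled Tgif1 OE changed by 1.00 and 1.13 for Itga3 in replicates 1 and 2 and in replicates 3 and 4, by 0.90 and 1.23 for Col5a2, and by 0.63 and 0.56 for Col1a2. For Itgav the values were 0.34 and 0.73, for Itgb5 0.28 and 0.43, and for Col3a1 0.22 and 0.81. The arrays labelled Tgif2 OE gave 0.68 and 1.45 for Col5a2, 0.69 and 1.16 for Itga3, 0.18 and 0.56 for Itgav and -0.37 and -0.79 for Itgb7. Every called member kept its direction in both pairs, and most changes were larger in replicates 3 and 4. In replicates 1 and 2 alone, 6 of the 12 calls on the arrays labelled Tgif1 OE ended, those of Itgb7 (adjusted p = 0.0778), Col26a1 (0.084), Col18a1 (0.0914), Itga2b (0.0939), Itgae (0.137) and Col3a1 (0.492). In replicates 3 and 4 alone those of Col18a1 (0.121), Col26a1 (0.174) and Itga2b (0.304) ended. With pair means 8 of the 12 remained, without Itgb7 (0.0626), Col3a1 (0.083), Itga2b (0.117) and Col18a1 (0.158). On the arrays labelled Tgif2 OE, replicates 1 and 2 alone ended the calls of Col13a1 (0.0635), Itgav (0.107) and Itga9 (0.116), and pair means that of Itgav (0.0671).

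**Figure D4:**
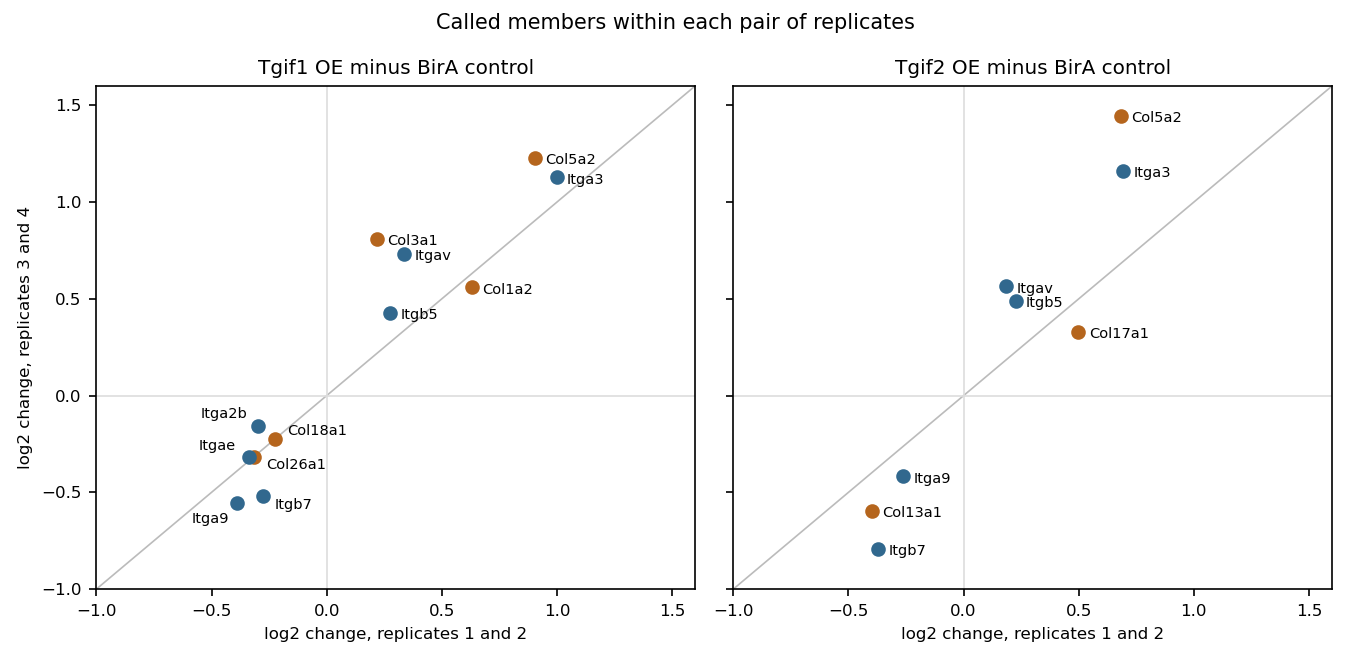
Log2 change against BirA control within replicates 1 and 2 (x axis) and within replicates 3 and 4 (y axis) of each member that passed the test, for the arrays labelled Tgif1 OE (left) and Tgif2 OE (right); collagens are brown, integrins blue, and the grey diagonal marks equal changes. Itga3, Col5a2, Itgav and Itgb5 lie above the diagonal in both panels.

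Some members that were not called turned with the pair: 17 of 57 changed in opposite directions in the pairs on the arrays labelled Tgif1 OE and 16 on those labelled Tgif2 OE, beside 31.8% and 28.2% of all genes. Itgb1 had the widest gap on the arrays labelled Tgif2 OE, where it read 7.77 and 7.84 in replicates 1 and 2 and 8.40 and 8.32 in replicates 3 and 4, while BirA control read 8.12 and 8.40, then 7.98 and 7.92. The change was -0.45 in the first pair and 0.41 ± 0.06 in the second (adjusted p = 0.00454), with -0.02 ± 0.15 over all 4. The pooled value near 0 for the common beta chain is thus a mean of opposite differences, and it does not show that Itgb1 was unchanged. On the same arrays Col3a1 changed by -0.11 in the first pair and 0.51 ± 0.08 in the second (0.00457). On the arrays labelled Tgif1 OE Itgb1 changed by -0.22 in the first pair and 0.33 ± 0.06 in the second (adjusted p = 0.0134). Its pooled value there does not show that it was unchanged either. Col11a1 on the arrays labelled Tgif1 OE changed by -0.31 and 0.21, with neither pair past the threshold.

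The genes most like the leading members were found by Pearson correlation over the 16 arrays, which share groups and array pairs, as a description. Itgav was most like Elovl2 (r = 0.98) and Dnajc1 (0.98), and its nearest member was Itgb5 (0.84). Itga3 was most like Psors1c2 (0.97) and Dennd11 (0.96), with Col5a2 as its nearest member (0.90), and Col5a2 was most like Cdk14 and Id1 (both 0.97). Itga6 was most like Eci3 and Prkci (both 0.99), Col11a1 like Samd8 (0.97) and Lcorl (0.96), and Itgb7 like Ppp2r5a and Atp5o (both 0.96), with Itgae as its nearest member (0.86). Col1a2 was most like Wnt4 and Bmp1 (both 0.88).

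Genes that make, secrete and crosslink collagen were taken as a list, of which 22 of 30 were measured. The counts of this list, and of the lists and markers below, stand beside the share of all genes called. That share was 25.1% on knockdown, 20.7% on the arrays labelled Tgif1 OE, 26.9% on those labelled Tgif2 OE and 9.59% in their direct comparison. No list was tested as a set. On knockdown 6 rose and none fell (median 0.23 log2, beside 0.00 over all genes), among them the prolyl hydroxylase chains P4ha1 (1.41 ± 0.14) and P4ha2 (1.11 ± 0.17). On the arrays labelled Tgif1 OE 5 rose and 5 fell (median 0.07). The collagen chaperone Serpinh1 rose by 1.19 ± 0.12 and the procollagen proteinase Bmp1 by 0.81 ± 0.15 there. Among the arrays labelled Tgif2 OE 5 rose and 5 fell (median -0.06), with Serpinh1 at 0.75 ± 0.12 and the crosslinking enzyme Loxl1 at 0.71 ± 0.15. In the direct comparison of these groups 3 were higher and 1 lower on the arrays labelled Tgif1 OE, Bmp1 by 0.53 ± 0.15 and Serpinh1 by 0.44 ± 0.12.

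Integrin ligands other than collagen were measured for 22 of 25 listed genes. On knockdown 3 rose and 1 fell, beside 25.1% of all genes called. Among them were the fibrinogen chain Fgg at 1.91 ± 0.14 and the laminin chain Lama3 at -0.95 ± 0.23. On the arrays labelled Tgif1 OE 2 rose and 5 fell: thrombospondin Thbs1 rose by 3.16 ± 0.38 and the laminin chain Lama1 fell by 1.03 ± 0.07. Against the arrays of BirA control, those labelled Tgif2 OE had 2 higher and 3 lower, with Thbs1 at 2.40 ± 0.38 and Lama3 at 1.17 ± 0.16. Directly compared, 3 were lower on the arrays labelled Tgif1 OE and 0 higher, among them Icam1 (-0.96 ± 0.14) and Nid1 (-0.53 ± 0.11). The list medians lay between -0.07 and 0.12.

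Proteins that bind integrin tails or tie them to actin were measured for 19 of 22 genes. On knockdown 1 rose and 2 fell, with Lims2 at 0.47 ± 0.16 and Pxn at -0.47 ± 0.10. On the arrays labelled Tgif1 OE 5 rose and none fell, beside 10.1% of all genes higher (median 0.09 beside -0.01). On those labelled Tgif2 OE 7 rose and 1 fell, beside 13.4% of all genes higher and 13.5% lower (median 0.10 beside 0.00). The docking protein Bcar1 rose by 0.83 ± 0.10 and 0.52 ± 0.10, and vinculin, Vcl, by 0.80 ± 0.09 and 0.73 ± 0.09. Directly compared, 1 gene was higher on the arrays labelled Tgif1 OE, Ilk (0.30 ± 0.07), and 1 lower, Parvb (-0.43 ± 0.07). Of 7 measured collagen-binding or integrin-associated surface proteins that are not integrins, 1 rose on knockdown, Cd47 by 1.29 ± 0.21. On the arrays labelled Tgif1 OE 3 rose, with Cd44 at 1.11 ± 0.20 and the collagen receptor kinase Ddr1 at 0.94 ± 0.15, and on those labelled Tgif2 OE 3 rose, with Cd44 at 0.90 ± 0.20 and Ddr1 at 0.83 ± 0.15. Directly compared, none of the 7 passed.

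Of 12 fibroblast markers 4 were higher and 1 lower on the arrays labelled Tgif1 OE, led by the actin-bundle genes Tagln (3.46 ± 0.36) and Acta2 (1.73 ± 0.31), and 2 were higher on those labelled Tgif2 OE, Tagln (2.45 ± 0.36) and Acta2 (1.54 ± 0.31). Their mean ran from 5.44 to 5.84 on the arrays labelled Tgif1 OE, from 5.28 to 5.61 on those labelled Tgif2 OE and from 4.94 to 5.19 on BirA control. The median change of the 12 on the arrays labelled Tgif1 OE was 0.23 log2, beside -0.01 over all genes. Of the 7 not called there, Lum, Postn, Fap and Prrx1 changed by -0.03 ± 0.09, 0.13 ± 0.09, 0.19 ± 0.09 and 0.28 ± 0.13. On knockdown 1 was higher and 1 lower, Vim (0.75 ± 0.15) and Thy1 (-1.28 ± 0.14), with means of 5.22 to 5.25 against 5.34 to 5.40 on shControl. Primitive endoderm markers were higher in 2 of 8 cases on the arrays labelled Tgif1 OE, and in 3 of 8 with 1 lower on those labelled Tgif2 OE, with means of 6.10 to 6.26 and 6.06 to 6.24 against 6.05 to 6.10. The part of these markers in the collagen and integrin changes was not tested. ES cell markers were lower in 5 of 8 cases on the arrays labelled Tgif1 OE and in 1 of 8 on those labelled Tgif2 OE, with means of 12.08 to 12.26 and 12.22 to 12.44 against 12.33 to 12.51 on BirA control. In these unsorted cultures fewer cells with a transcript and less of it per cell cannot be told apart.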

How the data were processed

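The deposited table holds log2 intensities of probe sets on 16 arrays. Per the submitters' processing notes, the authors used RMA, and limma is also named for the Tgif2 OE samples; no version is given in the sources used here. They ran from 2.19 to 14.79. Of 22690 probe sets, 64 were controls, 20380 carried 1 symbol, 691 several and 1555 none. For each gene the probe set of highest 16-array mean was used, with no filter on dim genes. Each array was then shifted by 1 constant, because the Tgif2 OE arrays lay 0.11 log2 above the others. A model with 1 mean per group was fitted in limma 3.58.1 (R 4.3.3) to the 16 arrays together, with Benjamini-Hochberg adjustment over 12393 genes, and the script was tested on simulated data. The number of arrays limits the precision.

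The members and all lists were chosen with earlier results of these data known. Members are named by this rule: in each comparison those past the threshold without overlap and with a change of at least 0.5, the 5 brightest of each kind, those called in both arms, and Itgb1, Itga5, Itga6, Itgav, Col1a1, Col1a2, Col3a1, Col5a2 and Col18a1. From other lists at most 2 members per comparison are named, apart from markers; names outside the rule complete a count. Arrays with the same replicate number correlated in their deviations at 0.32 to 0.56 over 12 comparisons in the overexpression arm. The number was the best match in 2 of 12, so pairing by number was not shown beyond the split into array pairs. The replicate block is therefore an alternative only, and the main fit has no block. In the knockdown arm r was -0.0044.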

Additional observations from a re-analysis of the deposited data

Results flagged for a closer look

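On the BirA control arrays Itgb5 read 7.51 on replicate 3 and 7.36 to 7.38 on the other 3; the gap was 0.86 of the range of the group, past Dixon's 95% critical value for 4 arrays. This was 1 of 57 groups of 4 looked at, and chance passes about 1 in 20. The Tgif1 KD effect differed from the effect on the arrays labelled Tgif1 OE for 6 named members in limma's test of the difference: Col11a1 (1.63), Itgav (0.883), Itga6 (0.852), Col6a2 (-0.523), Col3a1 (-0.911) and Itga3 (-1.70). The arrays labelled Tgif1 OE differed from those labelled Tgif2 OE for Col17a1 (-0.319).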

How the results depend on the processing

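Of 1272 values of named genes under alternatives, 1167 kept their side of the threshold, 59 lost a call and 45 gained one in the same direction, and 1 turned into a call of the opposite sign: Itgb1 on the arrays labelled Tgif2 OE was 0.41 in replicates 3 and 4 alone against -0.02. Of the 1167, 71 changed sign without a call on either side, at values from -0.22 to 0.21. Leaving out 1 array gave 6 to 9 member calls on knockdown (10 with all arrays; 6 without Tgif1 KD replicate 1 or shControl replicate 2), 8 to 12 on the arrays labelled Tgif1 OE (12), 7 to 11 on those labelled Tgif2 OE (8) and 0 to 1 between them (1). Against BirA control the arrays labelled Tgif2 OE gave 14 calls on deposited values, 13 with the replicate block and 15 with the array pair as a block. Between the arrays labelled Tgif1 OE and Tgif2 OE the 1 call became 7 on deposited values, 5 with the mean of all probe sets, 3 with the replicate block, 4 with the array pair as a block, 3 in replicates 1 and 2 alone, 2 in replicates 3 and 4 alone, and 0 without the dimmest 33.3% of genes or with array pair means, an alternative chosen after seeing the data. The cause was not tested, except that leaving out an array or averaging pairs leaves fewer values. The replicate block changed no other call than those given beside the results. Over all genes, calls on knockdown fell from 3115 to between 2032 and 2160 without 1 array, and those between the arrays labelled Tgif1 OE and Tgif2 OE from 1188 to between 785 and 1098. Pair means gave 1647 calls (2564), 2212 (3331) and 208 (1188) on the arrays labelled Tgif1 OE, labelled Tgif2 OE and between them. The array pair as a block gave 3906 on the arrays labelled Tgif1 OE and 2480 between the groups, where deposited values gave 2439 the replicate block 1873 and a model of only the groups compared 772. Probe sets near background limit what the 38 dim members can show. Without the dimmest 33.3% of genes, 10 of 19 members passed on the arrays labelled Tgif1 OE beside 31.2% of all genes. On those labelled Tgif2 OE 7 of 19 passed beside 34.5%, and between the 2 groups 0 of 19 beside 12.6%.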

Other observations

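Among members outside the naming rule, the knockdown effect also differed from the effect on the arrays labelled Tgif1 OE, in limma's test of the difference, for Itgam (0.56 ± 0.15, adjusted p = 0.0134), Col13a1 (0.70 ± 0.22, 0.0254) and Col9a2 (-0.76 ± 0.26, 0.0414). These were chosen after their values were seen. For Col9a2 the shControl arrays themselves lay far apart, at 6.09 and 5.27, beside 5.10 and 5.19 on Tgif1 KD. Col13a1 read 4.92 and 5.0 on shControl and 5.61 and 5.17 on Tgif1 KD.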
